A study of Homo sapiens with 46 samples.

Results

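Cells of the LB1-AID line collected after 16 h of auxin were compared with cells of the same line at 0 h. The comparison uses 7 of the 46 RNA-seq libraries of the study, 4 at 16 h and 3 at 0 h, taken by their labels alone. DLD-1 is an established human colorectal adenocarcinoma line. In the LB1-AID line the endogenous Lamin B1 gene carries an auxin-inducible degron (AID) at the N-terminus of the protein, and auxin, dissolved in DMSO, was added at 1 mM. The 0 h cells carry the same tag, and whether they were given DMSO is not stated in the labels. Whether the line is 1 clone is not stated either. Replicates were wells of a culture plate, so p-values measure the spread between wells grown together, not between independent derivations of the line. Untagged parental DLD-1 cells (labelled WT) had 4 libraries each at 0 h, 16 h and 96 h of the same auxin treatment. They were included to list genes that respond to auxin itself. The LB1-AID line also had 4 libraries at 96 h.

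Lamins are the intermediate filament proteins of the nuclear lamina, the meshwork under the inner nuclear membrane that carries mechanical load and anchors heterochromatin. Lamin B1 is permanently farnesylated and stays attached to the membrane, whereas Lamin A loses its lipid anchor during maturation and Lamin C never has one. An AID tag recruits an auxin-bound F-box protein that marks the tagged protein for the proteasome, so the degron removes protein and not RNA. Auxin (indole-3-acetic acid) and related indoles can also bind the aryl hydrocarbon receptor, a ligand-activated transcription factor whose best known target is CYP1A1.

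The transcript of the tagged gene did not fall. LMNB1, on chromosome 5 (126776623 to 126837020, GRCh38, plus strand), was at 100.2, 97.6 and 86.4 counts per 1000000 (CPM, scaled by TMM) in the 3 libraries at 0 h. At 16 h it was at 129, 137, 118 and 113 CPM. All 4 libraries at 16 h lay above all 3 at 0 h, but the log2 fold change of 0.39 ± 0.16 (standard error) did not pass the test over all genes (edgeR quasi-likelihood test, Benjamini-Hochberg adjusted p = 0.215). Without the libraries under 5000000 counts it was 0.43 and passed (edgeR adjusted p = 0.0326), and under the other 15 alternatives it did not pass. The change in the parental line was 0.25. LMNA, which encodes Lamin A and Lamin C, was at 743 ± 129 CPM (SD, n = 3) at 0 h and 855 ± 201 (n = 4) at 16 h, with a log2 fold change of 0.20 (edgeR adjusted p = 0.781). LMNB2 was at 304 ± 52.5 and 357 ± 46.0 CPM, with a log2 fold change of 0.24 (edgeR adjusted p = 0.663). For both genes the libraries of the groups overlapped. Lamin protein was not analysed here, and the RNA level of LMNB1 is no check of its degradation.

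**Figure D1:**
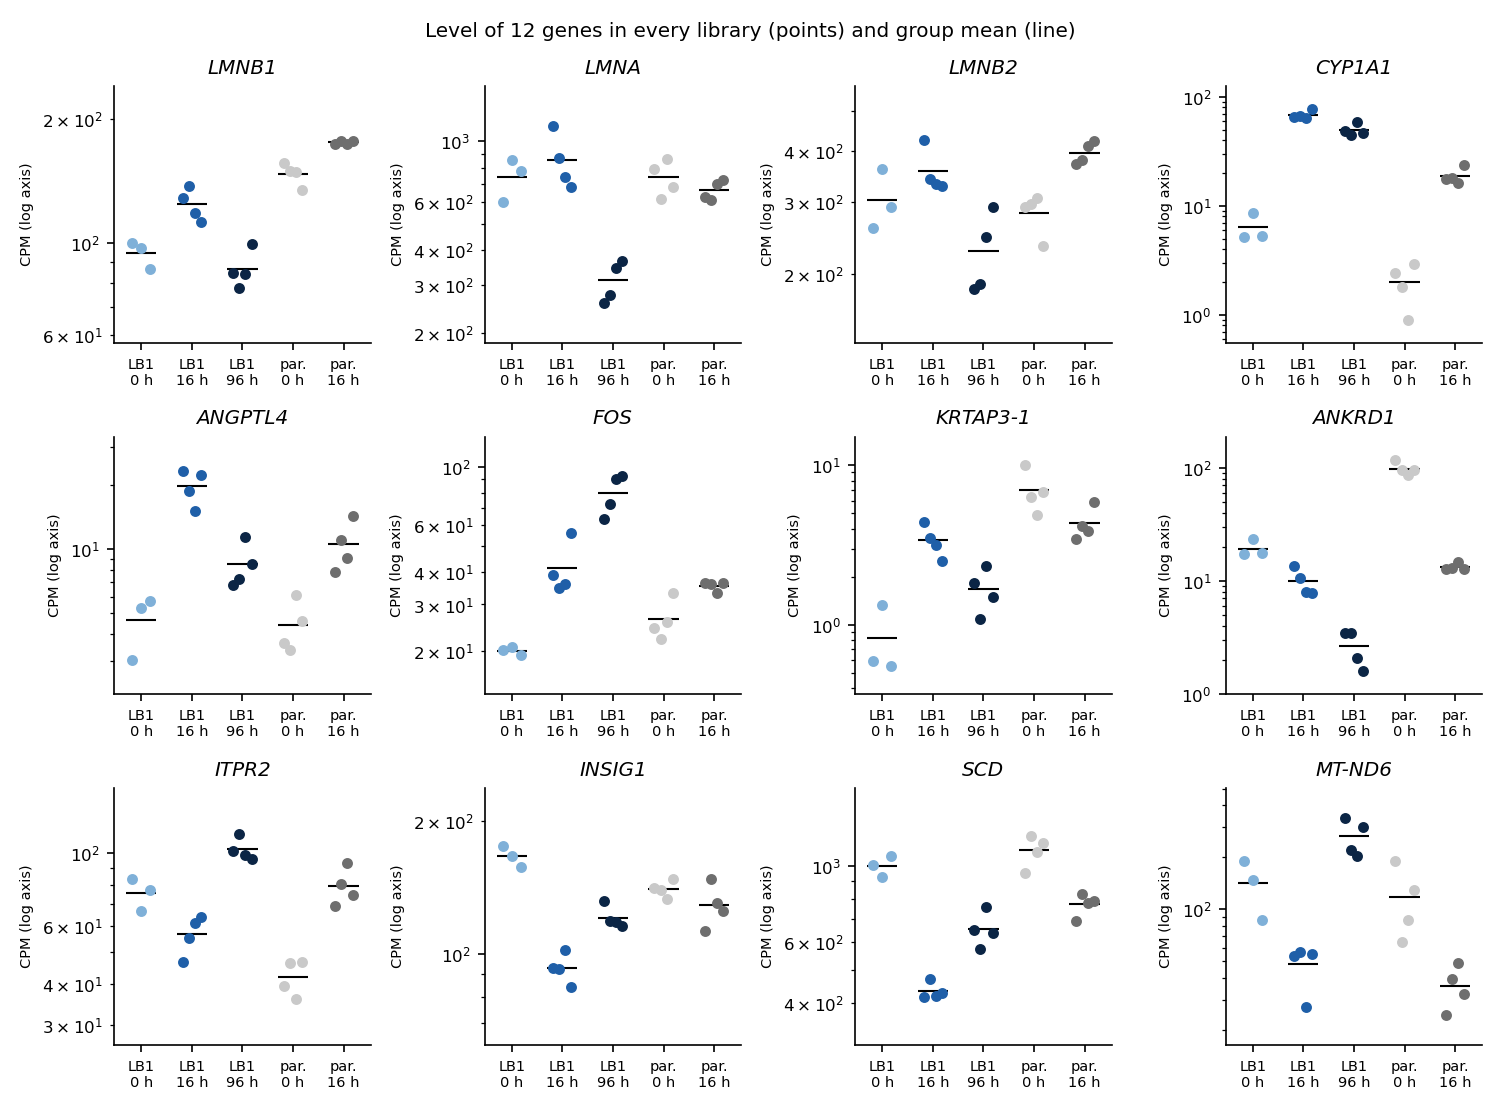
Level of 12 genes in every library, on log axes in CPM (TMM-scaled), for the LB1-AID line at 0, 16 and 96 h of auxin and the parental line (par.) at 0 and 16 h. Points are libraries and lines are group means. CYP1A1 rises in both lines, whereas ANKRD1, KRTAP3-1 and ITPR2 begin at different levels in the lines and lie closer together at 16 h.

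The 7 libraries held from 1452968 to 28232502 counts, against a median of 11533218 in the series. Replicate 2 at 0 h was the least deep of them, and a gene with 0 counts could there be at up to 2.06 CPM (3 counts), against 0.106 in the deepest. Intervals and floors of this kind cover counting error only. Of 15 markers of colorectal epithelium, 14 were tested, with CDX1 at 0, and their summed level was 6635 to 7503 CPM at 0 h and 8596 to 12681 CPM at 16 h. The summed markers of fibroblasts were at most 3.00 CPM, of leukocytes 4.38, of endothelium 18.6 and of neurons 57.4. Transcripts of the mitochondrial genome took 1.5% to 1.6% of counts at 0 h and 0.539% to 1.02% at 16 h.

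Over the whole transcriptome the change at 16 h was small. Of 21484 genes tested, 323 (1.5%) passed an adjusted p under 0.05, 212 of them higher (0.987%) and 111 lower (0.517%). An unadjusted p under 0.05 was found for 3288 of the 21484. The median change of the 323, regardless of direction, was 0.69 on the log2 scale. Of the 75 that changed at least 2-fold (0.349%), 14 rose and 61 fell. For 305 of the 323 the libraries did not overlap, 211 higher and 94 lower, where 9.94% of all genes tested were higher without overlap and 6.25% lower. The calls comprised 205 higher and 85 lower among 13734 protein-coding genes, and 2 higher and 8 lower among 1247 lincRNA genes.

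Which direction prevailed depended on the scaling. With TMM scaling 65.6% of the calls were higher, under RLE scaling 40.8%, by library size alone 32.6% and with DESeq2 44.6%, while the median log2 fold change of all genes went from -0.01 to -0.09, -0.12 and -0.09. Removing the trend with GC content and length gave 54.1% higher, and testing all genes without a low-count filter 54.0%. The number of calls also rested on single libraries. Without replicate 1, 2 or 3 at 0 h it was 88, 113 or 95, and without replicate 1, 2 or 4 at 16 h it was 166, 145 or 514. Without the 6 libraries of the series that hold under 5000000 counts, replicate 2 at 0 h among them, it was 1039. Of the genes named below, 16 passed under all 16 alternatives of this comparison: CYP1A1, KRTAP3-1, ANGPTL4, NANOS1, FOS, CXCL5, SNRPD3, CYP1B1, EGR1, MYC, PER2, HK2, ABCC3, INSIG1, SCD and NEAT1. Every other named gene that is called fell short of the threshold under at least 1 alternative, and the direction of each was kept. Of the 81 values of named genes (the change in the LB1-AID line and the difference from the parental line), 34 to 50 no longer passed without 1 library at 0 h, 38 without replicate 1 at 16 h and 35 without replicate 2 at 16 h.

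**Figure D2:**
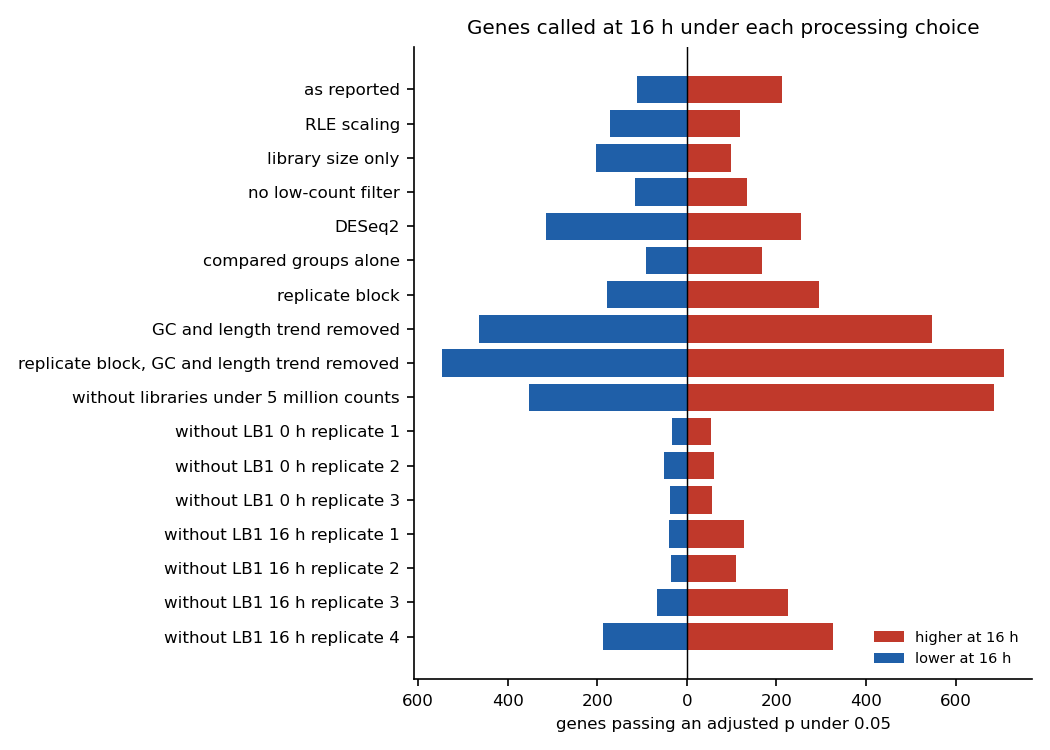
Number of genes passing an adjusted p under 0.05 in the LB1-AID line at 16 h against 0 h, higher (right, red) and lower (left, blue), as reported and under each alternative. The reported 212 higher and 111 lower become 118 and 171 under RLE scaling and 98 and 203 by library size alone.

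The largest rise with a symbol was that of CYP1A1, the cytochrome P450 enzyme induced through the aryl hydrocarbon receptor. It was at 5.21, 8.63 and 5.25 CPM at 0 h and at 64.6, 66.9, 63.3 and 77.3 CPM at 16 h, a 12.1-fold rise (log2 fold change 3.60 ± 0.26, edgeR adjusted p = 3.77e-14). Every library at 16 h lay far above every library at 0 h. The gene (chromosome 15, 74719542 to 74725536, minus strand) rose in the parental line too, where it was at 2.01 ± 0.866 CPM (SD, n = 4) at 0 h and 18.8 ± 3.25 (n = 4) at 16 h (log2 fold change 3.24). The difference between the lines, 0.36 ± 0.38, did not pass (edgeR adjusted p = 0.943). The receptor, paired with its partner ARNT, binds the core GCGTG on either strand. The 250 bases before the RefSeq start of CYP1A1 (chr15:74725529-74725778, GRCh38.p14, minus strand) hold it once, beginning 57 bases before the start. They are shown because this gene changed most, with the core in capitals.
CYP1A1: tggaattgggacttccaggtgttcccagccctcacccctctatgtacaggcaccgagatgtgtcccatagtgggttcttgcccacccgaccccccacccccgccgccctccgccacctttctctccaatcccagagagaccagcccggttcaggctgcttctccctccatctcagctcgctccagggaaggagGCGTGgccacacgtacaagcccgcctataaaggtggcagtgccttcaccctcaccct
Of all 35116 RefSeq promoters searched over the same length and on both strands, 32.2% hold these letters, so the match is a description and not a site.

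Of 12 tested members of a list of 15 targets of the receptor, CYP1A1 among them, 3 rose and none fell (edgeR), where 0.987% of all genes rose. The median log2 fold change of the 12 was 0.50 against -0.01 for all genes. CYP1B1, another cytochrome P450 of the pathway, went from 82.2 ± 3.68 CPM (SD, n = 3) to 149 ± 11.7 (n = 4), a log2 fold change of 0.86. ALDH1A3, an aldehyde dehydrogenase that makes retinoic acid, went from 4.80 ± 0.866 to 9.01 ± 1.29 CPM, also 0.86. TIPARP, a feedback repressor, had a log2 fold change of 0.64 that did not pass (edgeR adjusted p = 0.0680), and AHRR, the receptor's own repressor gene, one of -0.49 (0.439). In the parental line 4 of the 12 rose, where 4.23% of all genes rose.

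ANGPTL4, a secreted inhibitor of lipoprotein lipase, was next among the well-known genes. Its level was 3.02, 5.31 and 5.71 CPM at 0 h and 23.2, 18.7, 15.1 and 22.3 CPM at 16 h (log2 fold change 2.18 ± 0.30, edgeR adjusted p = 2.27e-05), with no overlap. The parental change was 1.29. CXCL5, a chemokine that attracts neutrophils, was at 39.8, 43.1 and 43.4 CPM at 0 h and at 81.1, 74.8, 103 and 82.8 CPM at 16 h (log2 fold change 1.03 ± 0.16, edgeR adjusted p = 0.000221). It was the 1 gene to rise among 21 tested cytokine and chemokine genes, where 0.987% of all genes tested rose. Its parental change of 0.40 did not pass (edgeR adjusted p = 0.0591). The difference between the lines was 0.89 for ANGPTL4 and 0.63 for CXCL5, and neither passed (edgeR adjusted p 0.755 and 0.562). At 96 h of auxin CXCL5 was back at 39.2 ± 10.0 CPM (SD, n = 4) in the LB1-AID line, lower than at 16 h by an edgeR adjusted p of 1.25e-07.

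The remaining large rises were a mixed group. SNRPD3, a core protein of the spliceosomal snRNPs, rose by 1.02 on the log2 scale, and TRMT61A, the catalytic subunit of a tRNA methyltransferase, by 1.05. H19, an imprinted long noncoding RNA, rose by 1.27 here and by 1.78 in the parental line. Another 4 of the largest rises were called in the parental line neither at 16 h nor at 96 h, besides KRTAP3-1 and CXCL5. ALPP, placental alkaline phosphatase, went from 13.6 ± 4.90 CPM (SD, n = 3) to 41.9 ± 16.4 (n = 4), and NANOS1, an RNA-binding translational repressor, from 5.52 ± 1.35 to 16.1 ± 2.65 CPM. VSIR, which encodes the immune checkpoint protein VISTA, went from 2.78 ± 1.41 to 8.43 ± 2.82 CPM. ZNF593OS rose by 1.58, from 0.744, 0 and 1.1 CPM to 3.48, 1.65, 2.80 and 2.12, all on few counts. It overlaps ZNF593 on the other strand, which has 0 counts in all 7 libraries. None of these 4 passed the test of a difference from the parental response (edgeR adjusted p 0.312 to 0.754), so a difference from the response to auxin alone is not shown for them.

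Immediate early genes were among those that rose. Of 26 tested, 3 rose (11.5%) and none fell (edgeR), where 0.987% of all genes rose, with a median log2 fold change of 0.18. FOS, a subunit of the AP-1 transcription factor, was at 20.1, 20.6 and 19.2 CPM at 0 h and at 38.9, 34.6, 36.0 and 56.1 CPM at 16 h (log2 fold change 1.07 ± 0.19, edgeR adjusted p = 0.00167). The groups stayed apart, and at 96 h FOS was higher still, at 79.7 ± 14.1 CPM (SD, n = 4). EGR1, a zinc finger transcription factor, rose by 0.87 and MYC by 0.78. JUN (0.28), JUNB (-0.19), ATF3 (-0.26) and IER2 (-0.27) did not pass. DUSP7, a phosphatase that acts on ERK, was the 1 gene to rise among 16 MAPK feedback genes, by 0.86. In the parental line EGR1 rose by 0.74 and MYC by 0.84, whereas the parental change of FOS, 0.44, did not pass (edgeR adjusted p = 0.0911) and the difference between the lines did not pass (adjusted p = 0.700). At 96 h against 0 h FOS was higher in the parental line too, by 1.64 (edgeR adjusted p = 5.02e-09).

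Genes of lipid synthesis were among those that fell. Of 25 cholesterol synthesis and uptake genes tested, 5 fell and none rose (edgeR), the median log2 fold change was -0.36, and 23 of the 25 were negative. Of 13 fatty acid synthesis genes 4 fell and none rose, with a median of -0.21. Over all genes tested 0.517% fell. SCD, the desaturase that makes monounsaturated fatty acids (chromosome 10), stood out with 1003, 928 and 1064 CPM at 0 h and 416, 470, 421 and 429 CPM at 16 h. All 4 libraries at 16 h lay below the lowest library at 0 h, and the log2 fold change was -1.20 ± 0.16 (edgeR adjusted p = 7.67e-06). INSIG1, which retains the sterol sensor SCAP in the endoplasmic reticulum and is itself a target of the sterol response factor SREBP, was at 176, 167 and 157 CPM at 0 h. At 16 h it was at 92.8, 92.5, 102 and 84.1 CPM, again without overlap (log2 fold change -0.84 ± 0.15, edgeR adjusted p = 0.000909).

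Enzymes along the sterol pathway followed. HMGCS1, which makes HMG-CoA, went from 241 ± 16.2 CPM (SD, n = 3) to 142 ± 32.3 (n = 4), a log2 fold change of -0.77. MSMO1, a methylsterol oxidase, changed by -0.73, ACAT2, a thiolase, by -0.59, and FDPS, which makes farnesyl diphosphate, by -0.53. On the fatty acid side PNPLA3, a lipid droplet protein, changed by -1.37 from a low level, LPIN1, a phosphatidate phosphatase, by -0.61, and ACSS2, which makes acetyl-CoA, by -0.60. FASN, the fatty acid synthase, had a log2 fold change of 0.34 that did not pass.

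Among parental cells at 16 h, where 4.78% of all genes were lower, the cholesterol list had 2 lower and none higher with a median log2 fold change of -0.12, and the fatty acid list 2 lower and 2 higher with a median of -0.09. At 96 h against 0 h the parental cholesterol list had 7 lower and none higher, with a median of -0.36, and the fatty acid list 2 lower and 1 higher, with a median of -0.14. At 16 h SCD changed by -0.52 in the parental line and INSIG1 by -0.12, the latter not past the test (edgeR adjusted p = 0.611). The difference between the lines at 16 h was -0.68 ± 0.21 for SCD and -0.72 ± 0.20 for INSIG1, and neither passed (edgeR adjusted p 0.470 and 0.329). At 96 h SCD stood at 655 ± 76.0 CPM (SD, n = 4) in the LB1-AID line, higher than at 16 h (edgeR adjusted p = 0.00297). The cholesterol count of lower genes was 9 under RLE scaling, 10 by library size alone, 11 without the libraries under 5000000 counts and 13 once the trend with GC and length was taken out, and no member was higher in any of these.

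**Figure D3:**
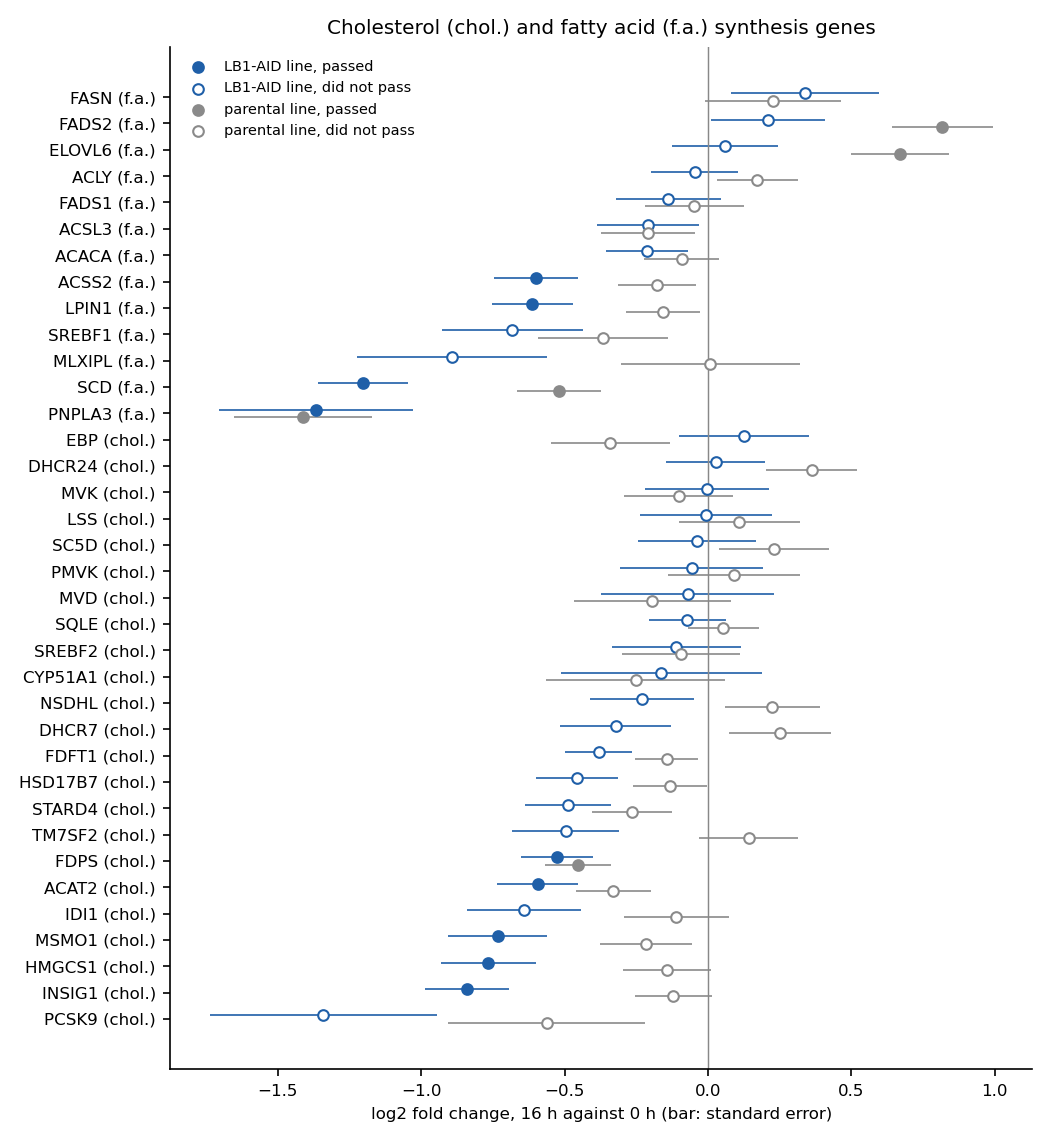
Log2 fold change at 16 h against 0 h for tested genes of cholesterol (chol.) and fatty acid (f.a.) synthesis, with the standard error of the fit as bars, in the LB1-AID line (blue) and the parental line (grey). Filled points passed an adjusted p under 0.05. SCD and INSIG1 lie at -1.20 and -0.84 in the LB1-AID line and at -0.52 and -0.12 in the parental line.

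Transcripts of the mitochondrial genome stood at lower levels at 16 h. All 13 protein-coding genes had a negative log2 fold change, from -1.55 to -0.66 with a median of -1.13. Of them 6 passed (edgeR), where 0.517% of all genes tested passed as lower. MT-ND6, a subunit of respiratory complex I encoded on the light strand, was at 190, 147 and 86.3 CPM at 0 h and at 53.6, 56.6, 27.4 and 55.1 CPM at 16 h (log2 fold change -1.55 ± 0.39, edgeR adjusted p = 0.0287). The groups did not overlap, although the 0 h libraries spread over a wide range. MT-ND6 did not pass under 5 of 16 alternatives, each without 1 library (edgeR adjusted p up to 0.203). The other called genes of the 13 did not pass under 4 to 6 of the 16. MT-TC, the mitochondrial cysteine tRNA, changed by -1.70, and it no longer passed once the GC and length trend was removed (log2 fold change -0.87, edgeR adjusted p 0.0604). The parental line had a median of -1.14 for the 13 genes, with 9 lower, where 4.78% of all genes were lower. At 96 h all 13 genes passed as higher than at 16 h in the LB1-AID line, where 9.53% of all genes did. The 30 nuclear genes of the respiratory chain had a median of 0.02 at 16 h against 0 h and none passed with edgeR or DESeq2. An unadjusted p under 0.05 was found for 4 of them, and for 3288 of all 21484 genes. With the GC and length trend removed 1 of the 30 was lower (edgeR).

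Several noncoding and low-level genes made up the rest of the largest falls. NEAT1, the scaffold RNA of paraspeckles, was at 462, 348 and 350 CPM at 0 h and at 178, 177, 206 and 234 CPM at 16 h (log2 fold change -0.96 ± 0.18, edgeR adjusted p = 0.00186), and it fell by 1.31 in the parental line. Of the 6 abundant nuclear noncoding RNAs tested it alone passed. OSBPL10-AS1 had the largest fall by the naming rule, -2.31 on the log2 scale, from 2.54 ± 0.707 CPM (SD, n = 3) to 0.382 ± 0.347 (n = 4), with a parental change of -2.91. The others of the 12 largest falls, apart from MT-TC and MT-ND6, ranged from -2.09 to -1.62. They were GRAMD1A, a carrier of cholesterol from the plasma membrane, LINC02939, the matrix protein gene ABI3BP, BACH1-IT2, the ARF6 exchange factor PSD, the potassium channel KCNJ5, the platelet receptor PEAR1, the U1 variant RNVU1-4 and the scavenger receptor STAB1. All of these were below 8 CPM in every library, and in replicate 2 at 0 h they rested on 2 to 12 counts. By position OSBPL10-AS1 overlaps OSBPL10 and LINC02939 overlaps MIRLET7BHG, each on the other strand, and BACH1-IT2 overlaps BACH1 on the same strand. The share of their counts that came from the overlapping genes was not tested. GRAMD1A, LINC02939, BACH1-IT2, PSD and KCNJ5 were the largest falls among genes not called in the parental line, and none passed the test of a difference between the lines (edgeR adjusted p 0.346 to 0.894).

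Genes of the nuclear envelope gave single calls in 3 of 4 lists, where 1.5% of all genes tested were called. Of all 21484 genes 3288 had an unadjusted p under 0.05. None of 8 lamin and lamin processing genes passed with edgeR or DESeq2, and 1, LMNB1, had an unadjusted p under 0.05 and passed without the libraries under 5000000 counts. Of 14 inner nuclear membrane partners of the lamins 1 rose (7.14%), TMEM201, an inner nuclear membrane protein, by 0.82, beside 0.71 in the parental line. LBR, the B-type lamin receptor, had a log2 fold change of 0.11 and TMPO, which encodes the LAP2 proteins, of 0.27, neither past the test. Of 6 genes of the LINC complex, which couples the lamina to the cytoskeleton, all had a negative log2 fold change and 1 passed (16.7%). Their median was -0.45. In the parental line at 16 h 4 of the 6 were lower, with a median of -0.85, where 4.78% of all genes were lower. The 1 that passed in the LB1-AID line, SYNE2 (nesprin 2), was there at 99.7, 45.8 and 56.6 CPM at 0 h and at 40.3, 44.4, 41.6 and 47.7 CPM at 16 h. The groups overlapped, and without replicate 1 at 0 h the change was -0.25 (edgeR adjusted p = 0.618) in place of -0.68 (adjusted p = 0.0419). NUP50, a nuclear pore protein, rose by 0.55 as the 1 of 30 pore genes to pass (3.33%), and CBX5, which encodes the heterochromatin protein HP1 alpha, rose by 0.61 as the 1 of 25 heterochromatin genes. Both rose in the parental line too, by 0.43 and 0.70.

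Lists of stress and repair genes are given beside a share of 0.987% of all genes tested that rose and 0.517% that fell. An unadjusted p under 0.05 was found for 3288 of all 21484 genes. Of 33 interferon-stimulated genes none passed with edgeR, 1 was lower with DESeq2, and 7 had an unadjusted p under 0.05, 4 higher and 3 lower. Without the libraries under 5000000 counts 3 of the list were higher and 2 lower (edgeR). With the GC and length trend removed 2 were higher and 1 lower. Of 17 genes of cytosolic nucleic acid sensing EIF2AK2, the kinase PKR, rose by 0.44, beside 0.34 in the parental line. Of 25 targets of p53 2 rose (8.00%). MDM2, its ubiquitin ligase, rose by 0.52 and AEN, an exonuclease, by 0.71. PLK1, a mitotic kinase, was the 1 of 38 mitotic genes to pass, at 0.46. None of 42 genes of DNA replication and S phase passed with edgeR or DESeq2, with 5 at an unadjusted p under 0.05. The chaperone lists held rises and no falls. Of 21 endoplasmic reticulum chaperones and unfolded protein response genes 3 rose (14.3%; DNAJB11, CALR and CRELD2) with a median of 0.26, and of 19 heat shock and cytosolic chaperones 2 rose (10.5%; DNAJA1 and FKBP4) with a median of 0.30. Both medians were positive under every scaling tried, where the smallest were 0.16 and 0.20. DDIT4, an inhibitor of mTORC1 that glucocorticoid, hypoxia and ATF4 induce, fell by 1.11, and PPP1R15A, which reverses the block of translation in that response, rose by 0.88. Among parental cells at 16 h, where 4.23% of all genes rose and 4.78% fell, the p53 list had 3 higher and 1 lower. The parental endoplasmic reticulum list had 3 higher and none lower (median 0.22), and the parental heat shock list 4 higher and none lower (median 0.20).

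Clock, WNT, goblet cell, retinoid and other lists held 1 to 3 calls each. PER2 and CRY2, repressors of the clock, rose by 0.80 and 0.58, and NR1D1, the nuclear receptor REV-ERB alpha, fell by 0.74, in a list of 22 with a median of -0.01. LGR5, a stem cell receptor of the WNT pathway, rose by 0.76, and TFF3, a trefoil factor of goblet cells, fell by 0.94. HK2, the glycolytic hexokinase, rose by 0.73, RDH10, a retinol dehydrogenase, rose by 0.62, and ABCC3, an export pump, fell by 0.85. Among parental cells at 16 h 4.23% of all genes rose and 4.78% fell. There the clock list had 3 higher and none lower, and the WNT list 5 higher and 1 lower. The parental retinoid list had 2 higher and none lower, and the goblet cell list 1 lower and none higher. Of 20 targets of SRF and contractile actin genes none passed with edgeR or DESeq2. An unadjusted p under 0.05 was found for 6 of them, and for 3288 of all 21484 genes. Among 21 targets of YAP, ANKRD1 fell and the others did not pass. Without the libraries under 5000000 counts 2 of the YAP list were higher and 1 lower. With the GC and length trend removed 2 were lower and none higher. In the parental line at 16 h 7 of the 21 were lower and none higher. Over the 34 lists together, 26 of 666 distinct genes tested rose and 22 fell, where 0.987% of all genes rose and 0.517% fell.

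**Figure D4:**
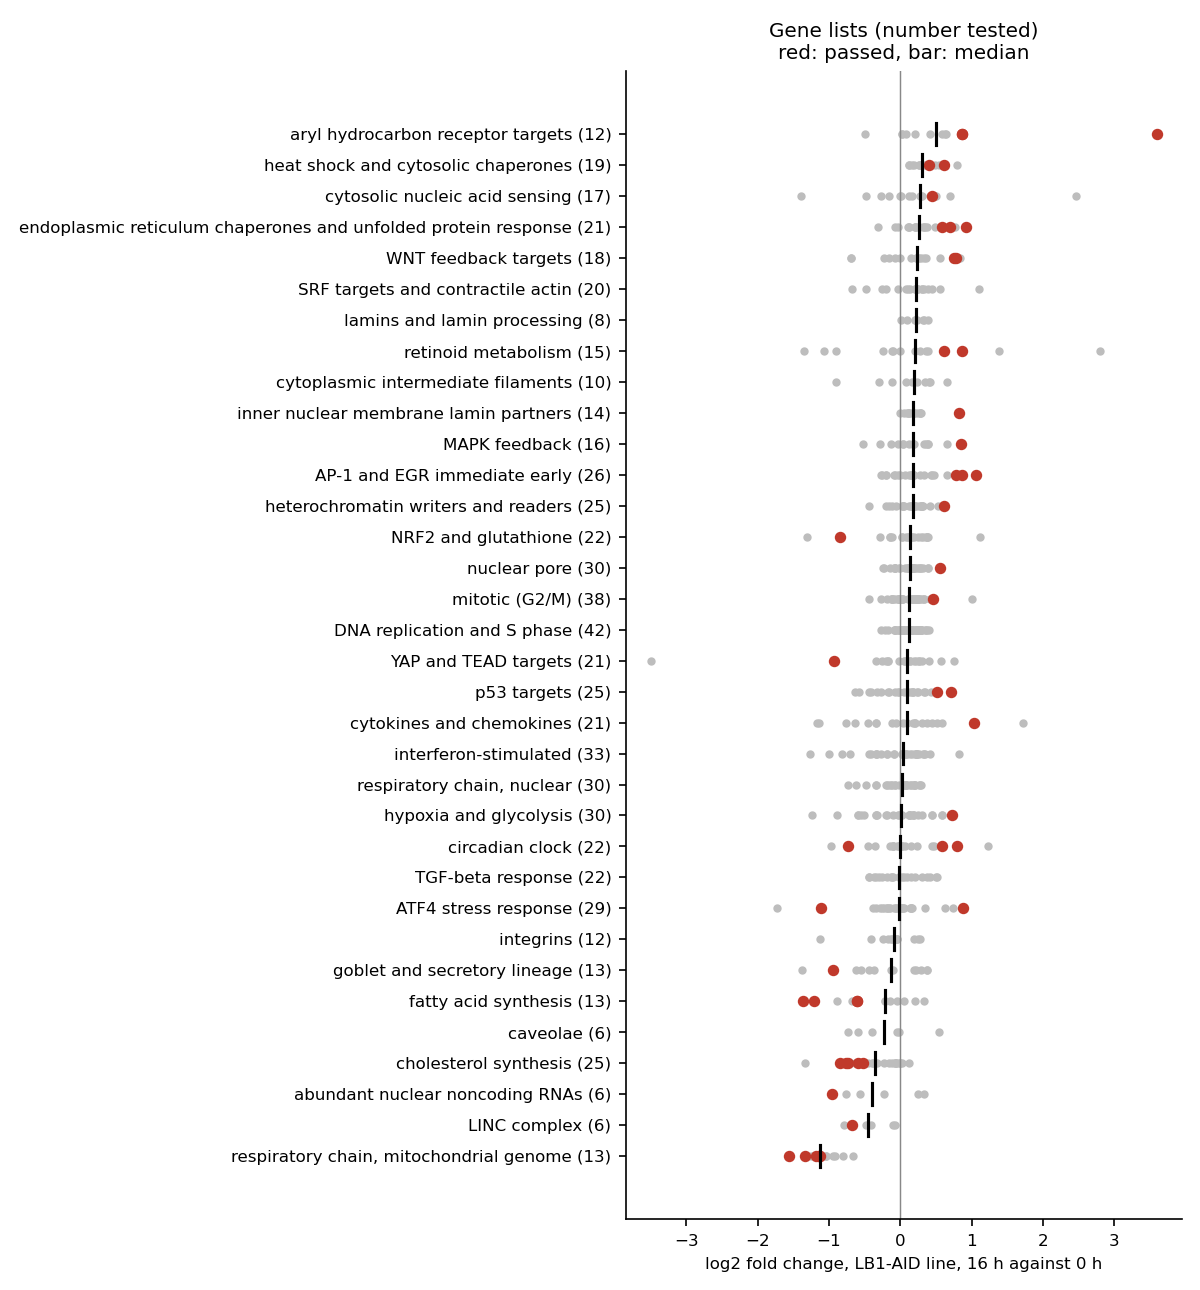
Log2 fold change at 16 h against 0 h in the LB1-AID line for every tested member of the 34 gene lists. Red points passed an adjusted p under 0.05, grey points did not, and black bars are the list medians, ordered from the highest (aryl hydrocarbon receptor targets, 0.50) to the lowest (mitochondrial genome, -1.13).

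Many of the genes called at 16 h were also called in untagged cells. In the parental line 1935 genes (9.01%) passed at 16 h, 909 higher (4.23%) and 1026 lower (4.78%), and 170 genes passed in both lines in the same direction, 117 higher and 53 lower. These are 52.6% of the LB1-AID calls and 8.79% of the parental calls. The parental log2 fold change had the same sign for 305 of the 323 genes (94.4%). The share with the same sign among all genes tested was not taken, so this count has no background beside it. Across 8680 genes with a mean log2 CPM over 4 the changes of the lines had a Pearson r of 0.55, a description across genes, which are not independent replicates. Changes in the LB1-AID line also went with GC content, with a Spearman rho of 0.23 across 8657 genes, and the part of GC content in the calls was not tested beyond the fit with the trend removed. Of the 323 calls, 121 were not among the 2686 genes that passed in parental cells at 16 h or at 96 h, where 7.78% passed.

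**Figure D5:**
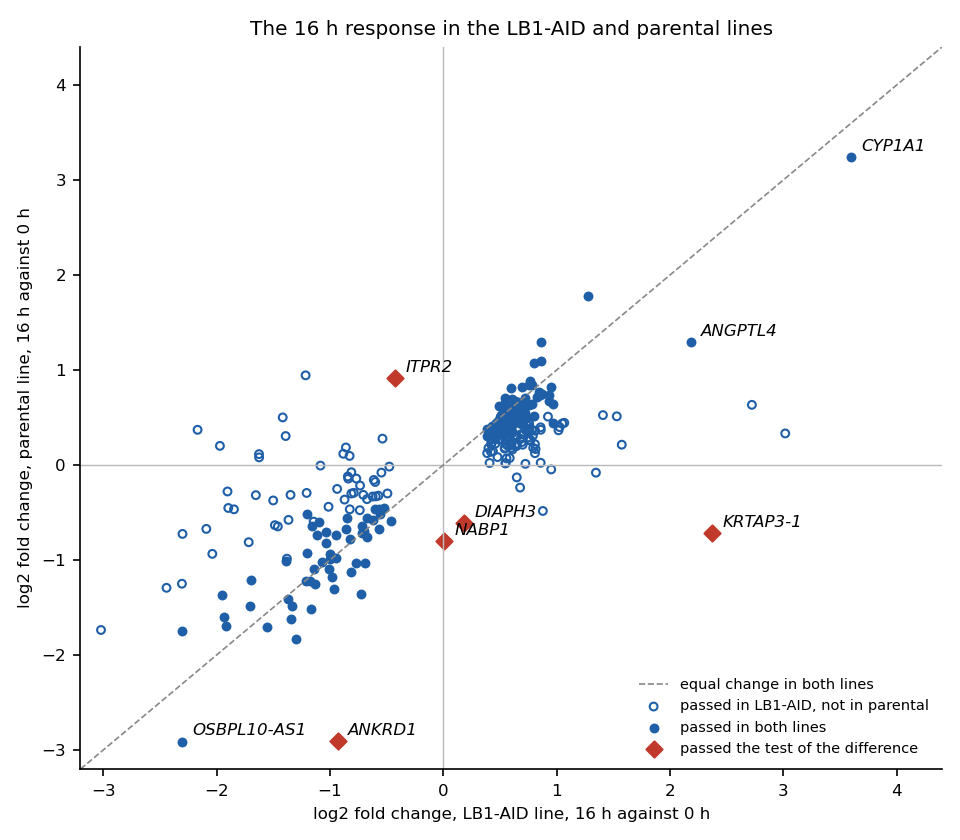
Log2 fold change at 16 h against 0 h in the parental line (vertical) against that in the LB1-AID line (horizontal) for the 323 genes called in the LB1-AID line except 1 that is not reported here, and for 5 of the 6 genes whose response differed between the lines (red diamonds). Filled circles passed in both lines and open circles in the LB1-AID line and not in the parental line, and the dashed line marks equal change.

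A difference between the responses was tested directly, and 6 of 21484 genes passed (0.0279%), 4 with a higher (0.0186%) and 2 with a lower (0.00931%) response in the LB1-AID line, while 1340 had an unadjusted p under 0.05. The 5 described here are ANKRD1, KRTAP3-1, ITPR2, DIAPH3 and NABP1. With DESeq2 the count was 30, and with the compared groups fitted alone 37. Leaving out 1 library gave 1 to 9 genes, with the lowest count without replicate 1 at 0 h.

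ANKRD1, a nuclear and sarcomeric ankyrin repeat protein that responds to YAP and to mechanical load, was the firmest of them (chromosome 10, 90912096 to 90921087, minus strand). In the LB1-AID line it was at 17.1, 23.2 and 17.6 CPM at 0 h and at 13.4, 10.6, 7.94 and 7.78 CPM at 16 h. In the parental line it was at 117, 96.1, 85.9 and 96.7 CPM at 0 h and at 12.7, 13.0, 14.7 and 12.7 CPM at 16 h. The lines differed widely before auxin and lay close together after it. The response was -0.93 ± 0.21 in the LB1-AID line and -2.90 ± 0.18 in the parental line, a difference of 1.97 ± 0.27 (edgeR adjusted p = 8.2e-05). The difference passed under all 24 alternatives, whereas the fall in the LB1-AID line itself did not pass without replicate 2 at 0 h (edgeR adjusted p = 0.051). At 96 h ANKRD1 fell further in the LB1-AID line, to 2.63 ± 0.938 CPM (SD, n = 4).

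KRTAP3-1, a keratin-associated protein of hair (chromosome 17, 41008521 to 41019324, minus strand), was at 0.595, 1.33 and 0.552 CPM at 0 h and at 4.43, 3.49, 3.17 and 2.51 CPM at 16 h in the LB1-AID line. The parental levels were 9.99, 6.36, 4.84 and 6.77 CPM at 0 h and 3.46, 4.13, 3.86 and 5.88 CPM at 16 h. Here too the LB1-AID line began lower and reached the parental level. The difference of the responses was 3.09 ± 0.50 (edgeR adjusted p = 0.0015), and without replicate 1 at 0 h it was 2.99 (edgeR adjusted p = 0.0764). The counts at 0 h were 12, 2 and 6.

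TEAD factors, the DNA-binding partners of YAP, recognise the core GGAATG on either strand. The promoters of ANKRD1 (chr10:90921088-90921337, minus strand) and KRTAP3-1 (chr17:41009129-41009378, minus strand), from RefSeq on GRCh38.p14, are shown because these genes differed most between the lines, with the core in capitals. ANKRD1 holds it 220 and 128 bases before its start and KRTAP3-1 holds it 235 bases before. The RefSeq start of KRTAP3-1 lies inside the counted gene, whose 5′ end is further upstream at 41019324, so its sequence is not that before the start of the counted gene.
ANKRD1: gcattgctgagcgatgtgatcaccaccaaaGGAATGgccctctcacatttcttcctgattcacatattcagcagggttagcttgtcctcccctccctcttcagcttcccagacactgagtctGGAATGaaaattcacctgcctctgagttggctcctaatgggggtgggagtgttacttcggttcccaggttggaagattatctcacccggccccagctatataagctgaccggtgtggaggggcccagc
KRTAP3-1: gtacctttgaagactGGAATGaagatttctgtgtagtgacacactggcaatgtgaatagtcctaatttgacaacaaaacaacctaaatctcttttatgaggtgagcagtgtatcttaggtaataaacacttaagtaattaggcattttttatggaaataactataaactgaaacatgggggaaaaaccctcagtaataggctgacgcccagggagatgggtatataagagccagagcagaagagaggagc
The core occurs in 11.9% of all 35116 promoters and in 10.1% of the 17660 promoters of genes tested. Among the promoters of genes called higher at 16 h 9.05% hold it, and among those called lower 6.48%.

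ITPR2 went the other way. ITPR2, an inositol trisphosphate receptor that releases calcium (chromosome 12, 26335352 to 26833194, minus strand), went from 75.6 ± 8.52 CPM (SD, n = 3) to 56.7 ± 7.68 (n = 4) in the LB1-AID line and from 41.9 ± 5.20 to 79.2 ± 10.4 (n = 4 each) in the parental line. Its own change of -0.43 in the LB1-AID line did not pass (edgeR adjusted p = 0.185), whereas the difference of -1.34 ± 0.23 did (adjusted p = 0.00268), though not without replicate 1 at 0 h (-1.27, adjusted p = 0.0504). The change in the LB1-AID line itself passed under 3 of 16 alternatives, with the GC and length trend taken out (edgeR adjusted p = 0.0168, or 0.00804 with the replicate block as well) and without the libraries under 5000000 counts (0.0416). By 96 h ITPR2 was at 102 ± 8.13 CPM in the LB1-AID line, higher than at 16 h.

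DIAPH3 and NABP1 did not pass in the LB1-AID line itself. DIAPH3, a formin that nucleates actin filaments, was at 89.0 ± 8.78 CPM (SD, n = 3) at 0 h and 102 ± 12.3 (n = 4) at 16 h, and NABP1, a single-stranded DNA binding protein, was at 80.2 ± 2.94 and 80.9 ± 5.43 CPM. In the parental line they fell by 0.61 and 0.80 on the log2 scale. The differences were 0.80 ± 0.16 (edgeR adjusted p = 0.027) and 0.81 ± 0.17 (adjusted p = 0.0448), and they did not pass under 12 and 17 of 24 alternatives, with adjusted p up to 0.563 and 0.535. Each of the 3 firmer genes, ANKRD1, KRTAP3-1 and ITPR2, differed in level between the lines at 0 h without overlap of their libraries, which was not put to a test here.

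More genes were called in the LB1-AID line between 16 and 96 h of auxin than in the first 16 h. The 2 counts do not measure the size of change alike, since the 0 h group had 3 libraries, 1 of 1452968 counts. Without the libraries under 5000000 counts they were 6760 for 96 h against 16 h and 1039 for 16 h against 0 h. Of 21484 genes 4379 (20.4%) passed, 2047 higher (9.53%) and 2332 lower (10.9%) at 96 h. CYP1A1 stayed at 49.6 ± 6.58 CPM (SD, n = 4), a change of -0.46 that did not pass (edgeR adjusted p = 0.0693). MYC (0.05), H19 (0.14) and HMGCS1 (0.13) did not pass either. ANGPTL4 fell by 1.21, ALPP by 2.15 and NANOS1 by 1.74. TFF3 rose by 3.11, to 42.0 ± 10.2 CPM. LMNB1 fell by 0.52 from 16 to 96 h and LMNA by 1.46.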

How the data were processed

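RNA was sequenced from 46 libraries of DLD-1 cells in 12 groups, and this report rests on the LB1-AID and parental groups. Per the labels' protocols, libraries were made with a stranded total RNA kit with ribosomal depletion, which keeps unspliced and noncoding RNA. The authors deposited raw counts per gene, made with featureCounts 1.6.4 from the environment of nf-core/rnaseq 1.4.2, per the file headers. STAR 2.7.10a and GRCh38 are named in the submitters' processing notes, without their role. The annotation release, the strand setting and the treatment of multiply mapped reads are not given in the sources used here. Of 13 protein-coding genes whose exons lie to at least 99% under exons of the opposite strand alone, 12 had 0 counts in all 46 libraries, against 11.7% of 10434 genes with no such cover, so reads of a gene and its antisense partner were treated as not told apart.

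The table held 62756 usable genes (1 broken over 3 lines was left out), 67.4% with a symbol. Counts were fitted with edgeR 4.0.16 in R 4.3.3 (glmQLFit and glmQLFTest, TMM scaling, filterByExpr by group, 1 coefficient per group, all 46 libraries in 1 fit). This left 21484 genes, adjusted by Benjamini-Hochberg, and genes were called at an adjusted p under 0.05, two-sided. The 3 main tests were LB1-AID 16 h against 0 h, the same change minus that of parental cells, and 96 h against 16 h. The same fit gave the calls of parental cells at 16 h and at 96 h against 0 h. Standard errors are the log2 fold change over the square root of F. CPM are TMM-scaled counts per 1000000. No replicates were duplicates by a chi-square test of their counts, and library totals set the precision as stated with the results. The fit was tested on simulated data.

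Named genes were the B-type and A-type lamin genes, the 12 largest rises and 12 largest falls among called genes with a symbol, a mean of at least 1 CPM over the 7 libraries and no overlap, the 5 largest each way of those not called in the parental line, the genes called in the difference (1 is not reported here), and every called member of 34 gene lists. There were also 5 lists of cell type markers. The lists and members were chosen with earlier results of these data known. List counts and medians carry no test. Alternatives were DESeq2 1.42.0, RLE scaling, scaling by library size alone, all genes without a low-count filter, a fit of the compared groups alone, a block by replicate number, removal of the trend with GC content and length (GENCODE 29), removal of 6 libraries under 5000000 counts, and leaving out each replicate. Promoters are from RefSeq, on GRCh38.p14, which held 55 of the 75 named genes, searched over 250 bases before the start.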

Additional observations from a re-analysis of the deposited data

Results flagged for a closer look

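The response at 16 h differed between the LB1-AID and parental lines for 6 genes by the test of the difference itself, 5 of which are reported. On the log2 scale the LB1-AID response minus the parental response was 1.97 for ANKRD1 (-0.93 against -2.90), 3.09 for KRTAP3-1 (2.37 against -0.72), -1.34 for ITPR2 (-0.43 against 0.92), 0.80 for DIAPH3 (0.18 against -0.61) and 0.81 for NABP1 (0.01 against -0.80).

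A single library stood apart from the other 3 of its group in 6 of 64 groups of libraries examined, where chance flags about 1 in 20. Replicate 1 at 16 h was the highest library for LMNB2 (425 CPM, the others 328 to 342), for TRMT61A (74.4 CPM, the others 41.6 to 45.7) and for NABP1 (89.0 CPM, the others 77.6 to 79.4). Replicate 3 at 16 h was the lowest for H19 (21.4 CPM, the others 27.0 to 27.5) and for MT-ND6 (27.4 CPM, the others 53.6 to 56.6). Replicate 4 at 16 h was the highest for OSBPL10-AS1 (0.897 CPM, the others 0.158 to 0.280).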

How the results depend on the processing

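The count of 323 genes at 16 h became 569 with DESeq2, 1012 with the GC and length trend removed, 1254 with the replicate block and that trend removed and 1039 without the libraries under 5000000 counts, and leaving out 1 library gave 88 to 514. The 6 genes of the difference from the parental line became 27 without the low-count filter, 30 with DESeq2, 37 with the compared groups alone, 13 with the replicate block, 38 with the trend removed, 77 with both and 21 without the shallow libraries, and leaving out 1 library gave 1 to 9. The 4379 genes of 96 h against 16 h became 6760 without the shallow libraries, and leaving out 1 library gave 2417 (without LB1-AID replicate 2 at 96 h) to 4207. Of the 323 calls, 314 kept their direction and passed with DESeq2, 229 under RLE scaling, 209 by library size alone and 84 without replicate 1 at 0 h. The cause of these shifts was not tested. NABP1, whose change in the LB1-AID line is close to 0, reversed to -0.067 under RLE scaling, -0.097 by library size alone, -0.068 with DESeq2 and -0.029 with the compared groups alone, and ranged from -0.0099 to 0.065 when 1 library was left out.

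Replicate numbers did not pair the libraries: same-numbered libraries of the LB1-AID line at 0 and 16 h had correlations of -0.28, 0.04 and 0.23 of their deviations from the group means. The replicate block gave 473 genes at 16 h and 4484 for 96 h against 16 h, and no value of a named gene changed its call. With 3 libraries at 0 h, 1 of 1452968 counts, falls of low-level genes rest on few counts.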

Other observations

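A list of 136 ribosome assembly factors was written after the named genes were known, so its counts are a description. Of 135 tested, 23 rose at 16 h and none fell (edgeR), where 0.987% of all genes tested rose and 0.517% fell. An unadjusted p under 0.05 was found for 74 of the 135, and for 3288 of all 21484 genes. Of the 135, 123 had a positive log2 fold change, and the median was 0.36. Under RLE scaling 12 rose, by library size alone 11, and once the trend with GC and length was taken out 41. The summed level of the list was 11347 to 11404 CPM in the 3 libraries at 0 h and 14202 to 15467 CPM in the 4 at 16 h. In the parental line 32 rose and 1 fell, with a median of 0.27, where 4.23% of all genes rose and 4.78% fell. From 16 to 96 h 2 rose and 45 fell in the LB1-AID line, where 9.53% of all genes rose and 10.9% fell.

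The letters CACGTG, the E-box bound by MYC and clock factors, stand in the 250 bases before the start of 36 of 232 promoters of genes called higher at 16 h (15.5%), of 7 of 108 of genes called lower (6.48%), of 7.97% of 17660 promoters of genes tested and of 6.34% of all 35116. GCGTG stands in 56.9%, 32.4%, 41.7% and 32.2% of the same sets. Both motifs hold a CpG and changes at 16 h went with GC content, and the part of base composition in these shares was not tested.

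Of 14 keratin-associated protein genes beside KRTAP3-1 and including it, a list also written late, 2 had enough counts to be tested, and KRTAP3-1 alone passed. Of 12 mitochondrial tRNA genes tested, 11 had a negative log2 fold change and MT-TC alone passed.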
